A study of Mus musculus with 4 samples.

Results

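The genes described here are 37 genes of the response to low oxygen and of glycolysis, measured by RNA sequencing in cultured mouse cardiac fibroblasts that overexpressed the nuclear receptor Nr4a3. They were taken by symbol from a table of 55359 genes. Of them, 21 are regulators or targets of the hypoxia-inducible factors (HIFs) and 16 encode enzymes of glycolysis down to lactate. A row was found under the listed symbol for 36 genes, and Ero1l was found by its Ensembl identifier, ENSMUSG00000021831, under the newer symbol Ero1a. Aldoa had 2 rows, and the second, ENSMUSG00000114515, held 0 and 4 reads in OENr4a3 and 0 and 2 reads in OECtrl and was too low to test. The other 37 rows, 1 for each gene, passed the filter on low counts.

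OENr4a3 and OECtrl were primary heart fibroblasts from wild-type newborn mice. OENr4a3 cells overexpressed Nr4a3 and OECtrl cells were the overexpression control, with 2 libraries in each group. The design text places the collection on day 7 of reprogramming toward induced cardiomyocytes, and the titles say day 10. The labels name neither the reprogramming factors nor the vector and its promoter, nor the oxygen level or medium of the cultures. No label says whether the replicates were separate cultures, so the p-values measure only how far these libraries scatter, which may be technical.

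The OENr4a3 libraries held 18441428 and 18287644 counts and the OECtrl libraries 14275501 and 16461333. Nr4a3 measured 175 and 178 CPM in OENr4a3, against 2.49 and 1.85 CPM in OECtrl (CPM, counts scaled to a common library size). The 8 fibroblast markers, among them Col1a1, Pdgfra and Tcf21, summed to 16020 CPM and 16250 CPM in OENr4a3 and 16280 CPM and 15270 CPM in OECtrl. Within that sum, Col1a1, Pdgfra and Ddr2 were called higher and Tcf21 and Lum lower. Markers of other cell types were present too: 8 macrophage markers summed to 632 CPM and 612 CPM in OENr4a3, against 955 CPM and 941 CPM in OECtrl, and 6 mesothelial markers to 426 CPM and 390.2 CPM in OENr4a3, against 834 CPM and 938 CPM in OECtrl. The 5 mural cell markers summed to 49.2 CPM and 46.9 CPM in OENr4a3, against 31.8 CPM and 23.3 CPM in OECtrl, with Cspg4 and Abcc9 called higher and Rgs5 lower, and the 6 endothelial markers to 42.6 CPM and 48.5 CPM in OENr4a3 and 51.7 CPM and 53.8 CPM in OECtrl. The 6 hepatocyte markers, Alb among them, summed to 0.551 CPM and 0.779 CPM in OENr4a3, against 45.8 CPM and 34.3 CPM in OECtrl. The 8 cardiomyocyte markers summed to 12.3 CPM and 6.01 CPM in OENr4a3 and 4.91 CPM and 4.67 CPM in OECtrl. Only 2 of them were tested, and Myh6 was called higher, with 99 and 53 reads in OENr4a3 and 19 and 1 in OECtrl. The part of these cell types in the results below was not tested. In RNA from a whole culture fewer cells of a type and less RNA per cell cannot be told apart.

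HIF is a pair of an oxygen-sensitive alpha subunit, such as HIF-1 alpha or HIF-2 alpha, and a stable beta subunit. Where oxygen is sufficient, prolyl hydroxylases mark the alpha subunit for destruction, so HIF activity is set mainly by protein stability and is often read from the genes it switches on. Those genes raise glucose uptake and glycolysis, export lactate and acid, hold pyruvate back from mitochondria, remove mitochondria and modify collagen. Glycolysis splits glucose into pyruvate, and lactate dehydrogenase turns pyruvate into lactate.

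Of the 37 genes, 11 were higher and 2 lower in OENr4a3 than in OECtrl at an adjusted p under 0.05 (edgeR's quasi-likelihood test, adjusted by Benjamini-Hochberg over 15029 genes). That is 29.7% of the members higher, where 12.0% of all tested genes were called higher, and 5.41% lower, where 11.0% of all tested genes were called lower. Of the 21 hypoxia genes 8 rose and 1 fell (38.1% and 4.76%), and of the 16 glycolysis enzymes 3 rose and 1 fell (18.8% and 6.25%). The median log2 fold change was 0.34 over the hypoxia genes and 0.08 over the glycolysis enzymes, where it was -0.01 over all tested genes. These are descriptions, and the difference between the lists was not tested. Both OENr4a3 libraries lay above both OECtrl libraries for 21 of the 37 genes and below them for 5 (56.8% and 13.5%), where 34.0% and 34.2% of all tested genes did so.

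**Figure D1:**
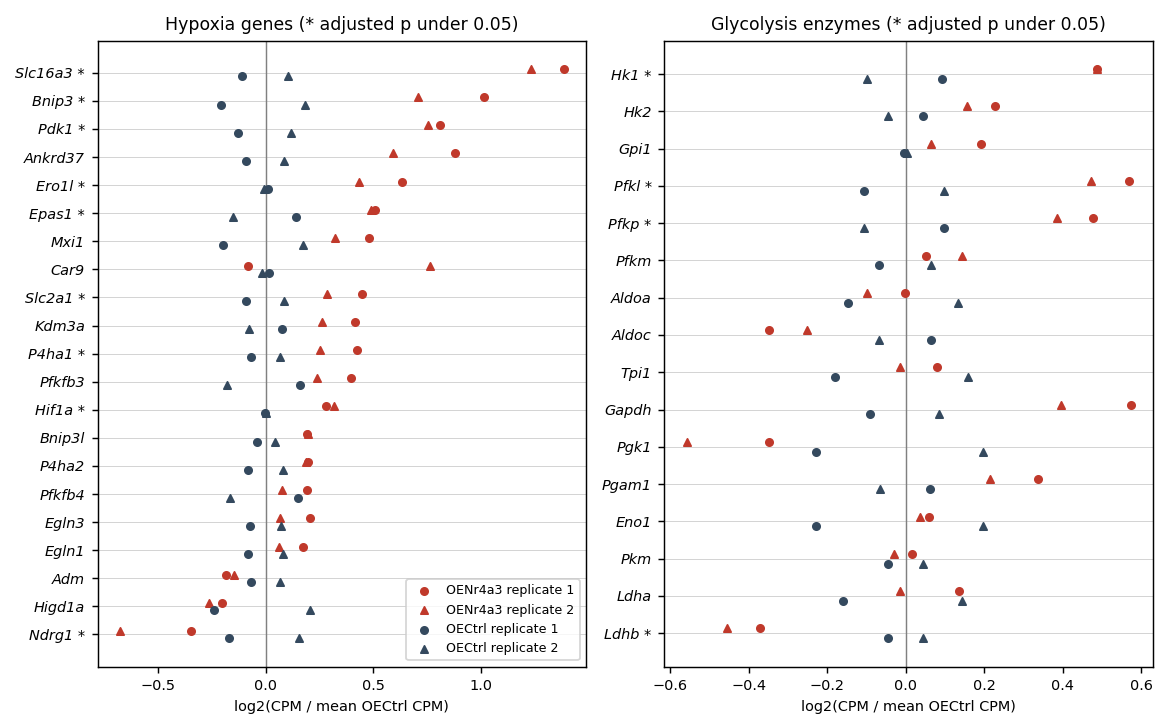
Each row is a gene and each point a library, placed at the log2 ratio of its CPM to the OECtrl mean; asterisks mark an adjusted p under 0.05. Among the hypoxia genes, Slc16a3, Bnip3 and Pdk1 have both OENr4a3 points well to the right of the OECtrl points, while Aldoa, Pkm and Ldha among the glycolysis enzymes overlap around 0.

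The promoters of Slc16a3, Pdk1, Bnip3 and Ero1l, the 4 members with an adjusted p under 0.01, are shown because HIF binds a short core, written here as ACGTG or GCGTG, that can be looked for in them. Each run covers 250 bases before to 50 bases after the RefSeq start, 5′ to 3′ along the gene in GRCm38.p6. Capitals mark every match to ACGTG or GCGTG on either strand, and on the other strand they read CACGT and CACGC. The windows are chr11:120948817-120949116 on the plus strand (Slc16a3), chr2:71872974-71873273 on the plus strand (Pdk1, the first of 2 listed starts), chr7:138909457-138909756 on the minus strand (Bnip3) and chr14:45318523-45318822 on the minus strand (Ero1l).
Slc16a3: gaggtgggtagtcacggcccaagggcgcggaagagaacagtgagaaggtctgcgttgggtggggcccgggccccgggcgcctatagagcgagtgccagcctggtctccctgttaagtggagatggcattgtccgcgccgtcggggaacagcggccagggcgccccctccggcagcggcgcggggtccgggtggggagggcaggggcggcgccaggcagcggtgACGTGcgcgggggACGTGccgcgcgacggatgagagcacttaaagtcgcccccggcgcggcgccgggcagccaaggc
Pdk1: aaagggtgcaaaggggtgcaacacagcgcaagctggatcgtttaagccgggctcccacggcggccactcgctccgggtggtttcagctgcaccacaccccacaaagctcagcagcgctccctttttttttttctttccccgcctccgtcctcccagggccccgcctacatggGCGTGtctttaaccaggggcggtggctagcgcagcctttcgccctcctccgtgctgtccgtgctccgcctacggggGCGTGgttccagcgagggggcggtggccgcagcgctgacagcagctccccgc
Bnip3: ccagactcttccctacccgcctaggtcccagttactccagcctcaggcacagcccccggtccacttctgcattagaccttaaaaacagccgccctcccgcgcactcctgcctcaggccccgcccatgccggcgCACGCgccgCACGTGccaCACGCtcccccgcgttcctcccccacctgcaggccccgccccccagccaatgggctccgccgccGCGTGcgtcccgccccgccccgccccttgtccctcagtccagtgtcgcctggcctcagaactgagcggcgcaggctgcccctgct
Ero1l: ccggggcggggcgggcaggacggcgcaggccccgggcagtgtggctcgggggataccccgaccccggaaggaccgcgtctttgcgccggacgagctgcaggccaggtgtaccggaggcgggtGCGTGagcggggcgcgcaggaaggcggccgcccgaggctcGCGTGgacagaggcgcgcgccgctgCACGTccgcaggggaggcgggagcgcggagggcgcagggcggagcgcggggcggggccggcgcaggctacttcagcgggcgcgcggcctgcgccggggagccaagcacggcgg
Slc16a3 held 2 matches, 27 and 14 bases before the start, and Pdk1 held 2, at 78 and 2 bases before it. Bnip3 held 5, of which 2 overlap in the palindrome CACGTG, and Ero1l held 3.

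Of the 37 members, 34 had a RefSeq window, and 28 of these 34 first-listed windows held ACGTG or GCGTG (82.4%), where 43.8% of the first windows of 27025 genes did. The share was 17 of 18 among hypoxia genes and 11 of 16 among glycolysis enzymes. It was 9 of 10 among the members called higher and 18 of 23 among those not called. Only the first-listed window was counted: Hk1, which was called higher, and Mxi1, Aldoa and Pkm held no match there but held matches in another listed window. The members' windows were also richer in G and C, with a median of 64.8%, where all genes had 52.7%, and both motifs hold CG; the part of base composition in these shares was not tested. AAAGGTCA, an element that NR4A receptors bind as monomers, was found on either strand in the first window of 1 member, Eno1 (2.94%), and in 1.46% of all first windows. A match describes letters in a window and is not a site.

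The rise with the highest fold change was that of Slc16a3 (chr11:120948480-120960868, plus strand; gene positions are GRCm38, GENCODE M21), which encodes the lactate exporter MCT4. It measured 105 and 94.6 CPM in OENr4a3, against 37.3 and 43.2 CPM in OECtrl. Each OENr4a3 library was more than 2 times as high as either OECtrl library (log2 fold change 1.31 ± 0.119 SE, adjusted p = 0.000235). Pdk1 (chr2:71873224-71903858, plus strand), a kinase that switches off pyruvate dehydrogenase and so keeps pyruvate out of mitochondrial oxidation, measured 39.6 and 38.1 CPM in OENr4a3 and 20.6 and 24.5 CPM in OECtrl. The OENr4a3 pair agreed closely and the groups did not overlap (log2 fold change 0.78 ± 0.129 SE, adjusted p = 0.00482). Bnip3 (chr7:138890836-138909519, minus strand), a receptor on the outer mitochondrial membrane that marks the organelle for mitophagy, measured 135 and 109 CPM in OENr4a3, against 57.6 and 75.6 CPM in OECtrl. The libraries within each group were spread, and the groups did not overlap (log2 fold change 0.87 ± 0.152 SE, adjusted p = 0.00606). These 3 genes kept their call in 13 alternative fits, which changed the tool, the scaling, the filter, the block or the length trend or left out a library.

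Ero1l (chr14:45283087-45318771, minus strand), an oxidase of the endoplasmic reticulum that drives disulfide bond formation, measured 355 and 309 CPM in OENr4a3 and 230.4 and 228 CPM in OECtrl. The OECtrl pair lay close together and below both OENr4a3 libraries (log2 fold change 0.54 ± 0.103 SE, adjusted p = 0.00879). Ero1l missed the threshold without OENr4a3 replicate 1 (0.44, adjusted p = 0.213).

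Both HIF alpha subunits among the members were called higher at the transcript level. Epas1 (chr17:86753700-86833410, plus strand), which encodes HIF-2 alpha, measured 466 and 459 CPM in OENr4a3, against 360.1 and 294 CPM in OECtrl (log2 fold change 0.50 ± 0.112 SE, adjusted p = 0.0153). The OENr4a3 pair agreed closely, and the OECtrl pair was lower and further apart. Hif1a (chr12:73901375-73947530, plus strand), which encodes HIF-1 alpha, measured 378 and 388 CPM in OENr4a3 and 311 and 312 CPM in OECtrl (log2 fold change 0.30 ± 0.0907 SE, adjusted p = 0.0427). Both pairs were tight and the difference was 1.23-fold. Per kilobase of exonic length, the level of Epas1 was 83.3 CPM per kb and 82.2 CPM per kb in OENr4a3 and 64.4 CPM per kb and 52.6 CPM per kb in OECtrl, and that of Hif1a was 64.1 CPM per kb and 65.9 CPM per kb in OENr4a3 and 52.8 CPM per kb and 53.0 CPM per kb in OECtrl. Without OENr4a3 replicate 1 or 2 the calls of Epas1 (log2 fold change 0.50 and 0.52) and Hif1a (0.33 and 0.29) were lost. That of Hif1a was lost in 8 of the 13 alternatives in all. The other losses were in DESeq2 (adjusted p = 0.0512), with upper-quartile factors (0.0677), with every gene that has a read tested (0.0705), with the replicate as a block (0.105) and with the trend of the libraries with gene length removed, without the block (log2 fold change 0.17, adjusted p = 0.14) or with it (adjusted p = 0.275).

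The oxygen sensors did not pass the test. Egln1, the main prolyl hydroxylase that marks HIF alpha, measured 150.3 and 139 CPM in OENr4a3 and 126 and 141 CPM in OECtrl (log2 fold change 0.12, 95% interval -0.12 to 0.36). Egln3, a prolyl hydroxylase that is itself a HIF target, measured 138 and 125 CPM in OENr4a3 and 113 and 126 CPM in OECtrl (log2 fold change 0.14, 95% interval -0.10 to 0.38). In both genes the lower OENr4a3 library lay below the higher OECtrl library. With the length trend removed Egln3 passed (log2 fold change 0.27, adjusted p = 0.0491).

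**Figure D2:**
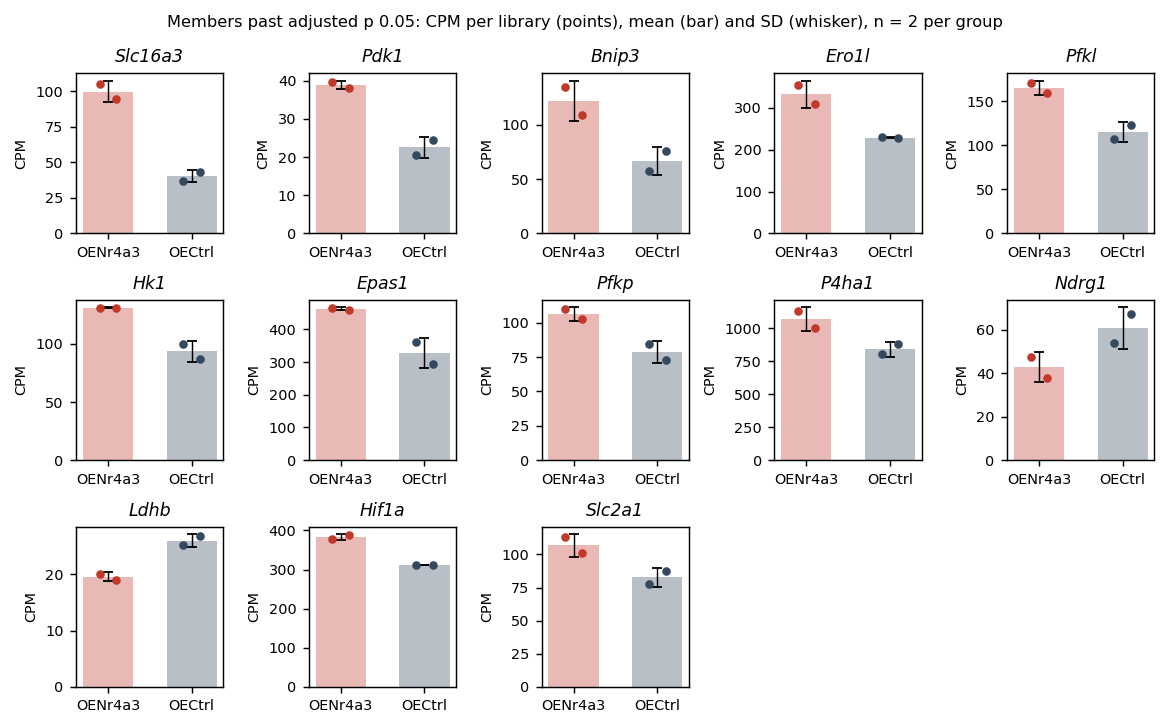
CPM of the 13 members with an adjusted p under 0.05, in order of p; points are libraries, bars the mean and whiskers the SD of 2 libraries, with OENr4a3 left of OECtrl and each axis starting at 0. The groups do not overlap in any panel, and Ndrg1 and Ldhb are the 2 genes lower in OENr4a3.

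Of the transporters and acid handling genes, Slc2a1 (chr4:119108711-119137983, plus strand), the glucose carrier GLUT1, measured 113 and 101 CPM in OENr4a3 and 77.6 and 87.8 CPM in OECtrl. It rose with an adjusted p close to the threshold (log2 fold change 0.37 ± 0.113 SE, adjusted p = 0.0438). Slc2a1 missed the threshold with upper-quartile factors (adjusted p = 0.0657), with every gene that has a read tested (0.0921) and with the replicate as a block (0.0502). The call was also lost without OENr4a3 replicate 1 or 2 (log2 fold change 0.29 and 0.46). Car9, a membrane carbonic anhydrase often used as a marker of hypoxia, was scarce, with 27 and 48 reads in OENr4a3 and 23 and 26 reads in OECtrl. The OENr4a3 libraries lay on either side of the OECtrl pair in CPM (adjusted p = 0.46, with a log2 fold change of 0.40 and a 95% interval of -0.45 to 1.25). Without OENr4a3 replicate 2 the log2 fold change was -0.07.

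The hypoxia genes that act on collagen and on mitochondria gave mixed calls. P4ha1 (chr10:59323296-59373304, plus strand), a catalytic subunit of collagen prolyl hydroxylase, measured 1133 and 1006 CPM in OENr4a3, against 804 and 884 CPM in OECtrl, and rose (log2 fold change 0.34 ± 0.0991 SE, adjusted p = 0.0366). Per kilobase of exonic length it had the highest level of the 21 hypoxia genes, at 275 CPM per kb and 244 CPM per kb in OENr4a3 and 195 CPM per kb and 215 CPM per kb in OECtrl. P4ha1 missed the threshold with upper-quartile factors (adjusted p = 0.0609) and with every gene that has a read tested (0.0677). Its call was also lost without OENr4a3 replicate 1 or 2 (log2 fold change 0.26 and 0.43). P4ha2, its relative, measured 159 and 158 CPM in OENr4a3 and 131 and 147 CPM in OECtrl, without overlap but short of the threshold (log2 fold change 0.19, adjusted p = 0.197), and passed without OECtrl replicate 2 (0.27, adjusted p = 0.00553). Bnip3l, the mitophagy receptor NIX and a relative of Bnip3, measured 155 and 156 CPM in OENr4a3 and 132 and 140.0 CPM in OECtrl (log2 fold change 0.20, adjusted p = 0.168). It passed without either OECtrl library (log2 fold change 0.16 without replicate 1 and 0.24 without replicate 2). Higd1a, a mitochondrial protein induced in hypoxic cells, measured 57.7 and 55.4 CPM in OENr4a3 and 56.3 and 76.7 CPM in OECtrl (log2 fold change -0.24, adjusted p = 0.259). OECtrl replicate 2 stood apart there: without it the log2 fold change was 0.01, and Higd1a was called lower without OECtrl replicate 1 (-0.44). Throughout, passing a fit that leaves 1 OECtrl library assumes that it varies like the OENr4a3 pair, which lay closer together. The shares of all tested genes called in those fits are given below.

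Ndrg1 (chr15:66929318-66969640, minus strand), a stress-responsive gene that hypoxia usually induces, was the 1 hypoxia gene called lower. It measured 47.6 and 37.9 CPM in OENr4a3, against 53.8 and 67.5 CPM in OECtrl (log2 fold change -0.51 ± 0.149 SE, adjusted p = 0.0385). The libraries of both groups were spread, and Ndrg1 missed the threshold without OENr4a3 replicate 1 (-0.67, adjusted p = 0.0517), without OENr4a3 replicate 2 (-0.34, adjusted p = 0.422), without OECtrl replicate 2 (-0.33, adjusted p = 0.0689) and with every gene that has a read tested (adjusted p = 0.104). Adm, the vasodilator peptide adrenomedullin, measured 279 and 286 CPM in OENr4a3 and 302 and 331 CPM in OECtrl, lower in OENr4a3 without overlap but short of the threshold (log2 fold change -0.17, adjusted p = 0.23). Adm was called lower without OECtrl replicate 1 (-0.23) and stood at 0.09 with the length trend removed.

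Ankrd37, a small ankyrin-repeat gene known as a HIF target in human cells, measured 5.29 and 4.34 CPM in OENr4a3 and 2.70 and 3.05 CPM in OECtrl. The groups did not overlap, but its adjusted p missed the threshold (log2 fold change 0.74 ± 0.240 SE, adjusted p = 0.0524), and it passed with the length trend removed (log2 fold change 1.01, adjusted p = 0.0145) and with the replicate as a block (adjusted p = 0.0408). Kdm3a, a histone demethylase, measured 91.3 and 82.1 CPM in OENr4a3 and 72.1 and 64.8 CPM in OECtrl (log2 fold change 0.34, adjusted p = 0.0536). Mxi1, a repressor that opposes MYC, measured 29.7 and 26.6 CPM in OENr4a3 and 18.5 and 24.0 CPM in OECtrl (log2 fold change 0.40, adjusted p = 0.0819). Both Kdm3a and Mxi1 lay higher in OENr4a3 without overlap. Kdm3a passed without OECtrl replicate 1 (log2 fold change 0.42) and without OECtrl replicate 2 (0.27), and Mxi1 without OECtrl replicate 2 (0.60). Pfkfb3, which makes the sugar phosphate that activates phosphofructokinase, measured 74.7 and 66.9 CPM in OENr4a3 and 63.3 and 50.01 CPM in OECtrl (log2 fold change 0.32, adjusted p = 0.106). It passed without OECtrl replicate 1 (0.50). Pfkfb4, its relative, had 71 and 65 reads in OENr4a3 and 55 and 51 reads in OECtrl and overlapped between groups (log2 fold change 0.14, adjusted p = 0.704).

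The 3 glycolysis enzymes called higher act in the upper part of the pathway. Hk1 (chr10:62268855-62379908, minus strand), a hexokinase that traps glucose in the cell, measured 131 and 131 CPM in OENr4a3, against 99.9 and 87.4 CPM in OECtrl (log2 fold change 0.49 ± 0.107 SE, adjusted p = 0.014). Pfkl (chr10:77986947-78010083, minus strand), the liver-type subunit of phosphofructokinase, which commits sugar to glycolysis, measured 171 and 159.6 CPM in OENr4a3 and 107 and 123 CPM in OECtrl (log2 fold change 0.52 ± 0.109 SE, adjusted p = 0.012). Pfkp (chr13:6579768-6648777, minus strand), the platelet-type subunit, measured 109.6 and 103 CPM in OENr4a3 and 84.4 and 73.2 CPM in OECtrl (log2 fold change 0.43 ± 0.111 SE, adjusted p = 0.0248). Both OENr4a3 libraries were above both OECtrl libraries in each of these 3 genes. Without OENr4a3 replicate 1 or 2 the calls of Hk1 (log2 fold change 0.50 and 0.50), Pfkl (0.48 and 0.58) and Pfkp (0.40 and 0.49) were lost.

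Hk1, Pfkl and Pfkp have long exonic sequence, and longer genes tended to be higher in OENr4a3 across the whole table (Spearman's rho of log2 fold change with exonic length 0.42 over 15029 genes, a description across genes that share the same 4 libraries). Pfkp, with 13401 exonic bases the longest member, stood at 0.04 once that trend was removed from each library (adjusted p = 0.791), and also missed the threshold with every gene that has a read tested (adjusted p = 0.0517). Hk1, with 8532 bases, stood at 0.25 (adjusted p = 0.0521), and Pfkl, with 6675 bases, kept its call at 0.35 (adjusted p = 0.0375). Pfkp also overlaps Pitrm1 on the other strand, and 17.1% of the 50-base windows of its longest coding transcript occur in that gene too.

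Other forms of these enzymes did not pass. Hk2, a hexokinase that HIF induces, measured 51.8 and 49.3 CPM in OENr4a3 and 45.6 and 42.9 CPM in OECtrl (log2 fold change 0.19, adjusted p = 0.217). It passed without OECtrl replicate 1 (0.24). Pfkm, the muscle-type subunit of phosphofructokinase, measured 34.2 and 36.4 CPM in OENr4a3 and 31.4 and 34.5 CPM in OECtrl (log2 fold change 0.10, adjusted p = 0.571). Of the summed level of Hk1 and Hk2 per exonic length, Hk1 made up 64.0% and 65.0% in OENr4a3, against 60.5% and 58.8% in OECtrl. Of the summed level of the 3 phosphofructokinase subunits, Pfkl made up 58.1% and 56.3% in OENr4a3, against 50.5% and 53.9% in OECtrl, and Pfkm 23.2% and 25.6% in OENr4a3, against 29.7% and 30.2% in OECtrl. These 3 shares did not overlap between groups, but an exact permutation test of 2 libraries against 2 cannot reach the threshold. That of Pfkp overlapped, at 18.6% and 18.07% in OENr4a3 and 19.85% and 15.96% in OECtrl. Division by exonic length does not remove the trend of fold change with length from these shares. Hk1 has 8532 bases and Hk2 5969, and Pfkl has 6675 and Pfkm 3340. The part of that trend in the shares was not tested.

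**Figure D3:**
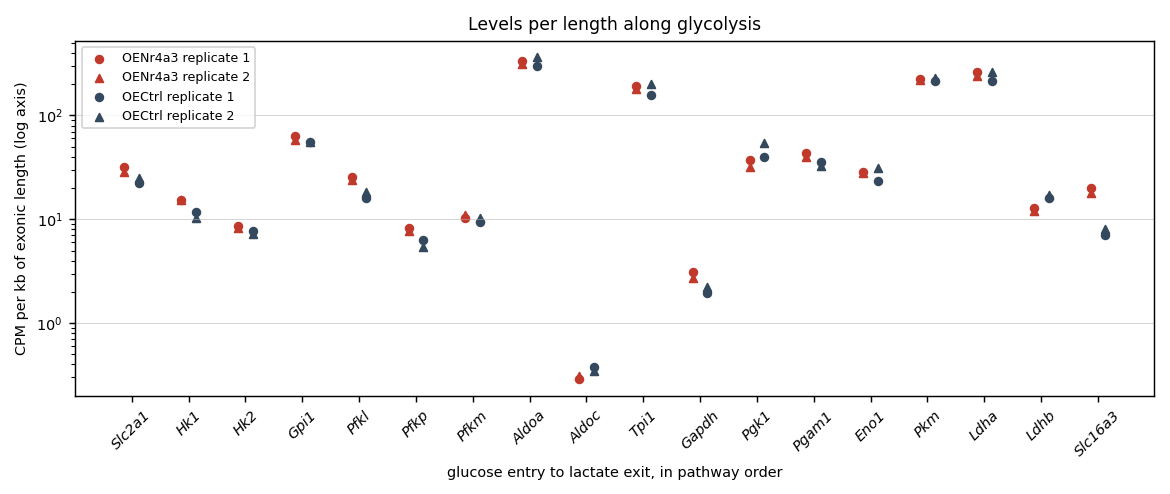
CPM per kilobase of exonic length on a log axis for genes of the pathway in order, with OENr4a3 points left of OECtrl points for each gene. The points of Pfkm, Aldoa, Tpi1, Eno1, Pkm and Ldha overlap between groups. Those of Slc2a1, Hk1, Pfkl, Pfkp and Slc16a3, which were called, are higher in OENr4a3. Those of Hk2, Gpi1, Gapdh and Pgam1, which were not called, are higher too. The points of Ldhb, which was called, and of Aldoc and Pgk1, which were not, are lower in OENr4a3.

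Of the enzymes with the highest levels per length, none passed. Aldoa, the aldolase that splits the sugar, measured 972 and 909.9 CPM in OENr4a3 and 879.7 and 1067 CPM in OECtrl (adjusted p = 0.771, with a log2 fold change of -0.05 and a 95% interval of -0.29 to 0.20). Pkm, pyruvate kinase, measured 1120.3 and 1085 CPM in OENr4a3 and 1074 and 1142 CPM in OECtrl (adjusted p = 0.962, with a log2 fold change of -0.01 and a 95% interval of -0.20 to 0.19). Ldha, the muscle-type subunit of lactate dehydrogenase and a HIF target, measured 872 and 786 CPM in OENr4a3 and 711 and 877 CPM in OECtrl (adjusted p = 0.722, with a log2 fold change of 0.06 and a 95% interval of -0.20 to 0.32). In each of these 3 genes the OECtrl libraries spanned the OENr4a3 libraries. Aldoa was called lower without OECtrl replicate 1 (log2 fold change -0.18), and Ldha higher without OECtrl replicate 2 (0.22).

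Tpi1, triose phosphate isomerase, measured 523 and 489.7 CPM in OENr4a3 and 437 and 552 CPM in OECtrl (log2 fold change 0.03, adjusted p = 0.859), and passed as higher without OECtrl replicate 2 (0.21, adjusted p = 0.0169). Gpi1, glucose phosphate isomerase, measured 407 and 373 CPM in OENr4a3 and 355 and 357 CPM in OECtrl (log2 fold change 0.13, adjusted p = 0.337). Aldoc, the brain-type aldolase, was scarce, with 17 and 18 reads in OENr4a3 and 18 and 19 reads in OECtrl (adjusted p = 0.624, with a log2 fold change of -0.29 and a 95% interval of -1.20 to 0.61).

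Ldhb (chr6:142490249-142507957, minus strand), the heart-type subunit of lactate dehydrogenase, was the 1 enzyme called lower. It measured 20.1 and 19.0 CPM in OENr4a3 and 25.2 and 26.8 CPM in OECtrl (log2 fold change -0.41 ± 0.126 SE, adjusted p = 0.0425). Of the summed level of Ldha and Ldhb per exonic length, Ldhb made up 4.63% and 4.84% in OENr4a3, against 6.95% and 6.05% in OECtrl, without overlap. Ldhb is among the shortest members, with 1570 exonic bases, where Ldha has 3310. Its call was lost with the length trend removed (log2 fold change -0.15, adjusted p = 0.389). The share of Ldhb was not corrected for that trend. Ldhb also missed the threshold in DESeq2 (adjusted p = 0.0979), with every gene that has a read tested (0.099) and with the replicate as a block (0.0566). The call was lost too without OENr4a3 replicate 1 or 2 (log2 fold change -0.44 and -0.36).

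The counts of Gapdh, Eno1, Pgk1 and Pgam1 are uncertain, because their sequence is shared with other genes and the sources used here do not give how reads matching several places were handled. Of the 50-base windows of the longest coding transcript of Gapdh, 82.5% also occur in 222 other genes, of which 213 are pseudogenes. The share was 72.2% for Eno1, 68.0% for Pgk1 and 41.5% for Pgam1. Of the hypoxia genes Bnip3 stood highest at 62.4%, and the 6 genes that share its windows held 10 and 9 reads in OENr4a3 and 5 and 12 reads in OECtrl. Slc16a3, Pdk1, Ero1l, P4ha1 and Epas1 shared no window. Bnip3 overlaps Gm45507 on the other strand, which held 0 reads in every library. Hif1a overlaps Gm15283 on the other strand, which held 20 and 11 reads in OENr4a3 and 7 and 7 reads in OECtrl. Gapdh, usually an abundant message, had 233 and 204 reads in OENr4a3 and 117 and 153 reads in OECtrl, while the genes that share its windows held 8498 and 8090 reads in OENr4a3 and 4966 and 6121 reads in OECtrl. Eno1 had 2781 and 2712 reads in OENr4a3 and 1813 and 2817 reads in OECtrl, and its near-identical copy Eno1b had 2406 and 2217 reads in OENr4a3 and 1637 and 2201 reads in OECtrl.

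With that limit, Gapdh, glyceraldehyde phosphate dehydrogenase, measured 12.8 and 11.3 CPM in OENr4a3 and 8.10 and 9.15 CPM in OECtrl (log2 fold change 0.48, adjusted p = 0.0563), and passed without OECtrl replicate 2 (0.58, adjusted p = 0.0398). Pgk1, phosphoglycerate kinase and a HIF target, measured 82.9 and 71.7 CPM in OENr4a3 and 90.0 and 121 CPM in OECtrl (log2 fold change -0.45, adjusted p = 0.0536). It passed as lower in DESeq2 (adjusted p = 0.0374), with upper-quartile factors (adjusted p = 0.0448), with the replicate as a block (adjusted p = 0.018) and without OECtrl replicate 1 (log2 fold change -0.64). Pgam1, phosphoglycerate mutase, measured 86.0 and 79.0 CPM in OENr4a3 and 71.1 and 65.2 CPM in OECtrl (log2 fold change 0.28, adjusted p = 0.0898). It lay higher without overlap and passed with the length trend removed (log2 fold change 0.49, adjusted p = 0.0101) and without OECtrl replicate 1 (0.34). Eno1, enolase, measured 153 and 151 CPM in OENr4a3 and 125 and 169 CPM in OECtrl (log2 fold change 0.05, adjusted p = 0.825), and passed as higher without OECtrl replicate 2 (0.28, adjusted p = 0.00566).

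**Figure D4:**
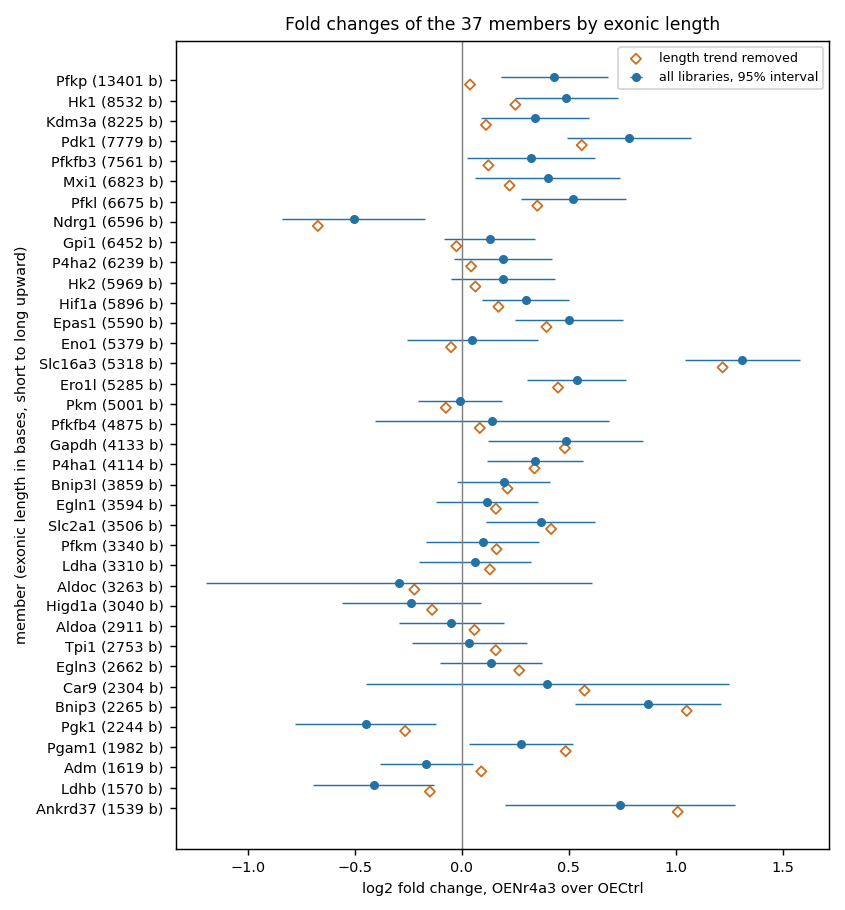
Log2 fold changes of the 37 members, OENr4a3 over OECtrl, ordered by exonic length; filled points with bars are the fit to all libraries with its 95% interval, and open diamonds the fit with the length trend removed. Removal takes Pfkp to 0.04 and Ankrd37 to 1.01, and leaves Slc16a3 at 1.22, Bnip3 at 1.05 and Pdk1 at 0.56.

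With the length trend removed, 11 members were called higher and 1 lower, where 9.07% and 11.2% of all tested genes were. Of the hypoxia genes 9 rose and 1 fell, and of the glycolysis enzymes 2 rose and the others did not pass. Of the 13 members called with the trend in place, 9 were called without it. The members also moved together between replicates. OENr4a3 replicate 1 was above replicate 2 for 31 of 37 members (83.8%), where this held for 48.1% of all tested genes. OECtrl replicate 2 was above replicate 1 for 26 of 37 (70.3%), where it held for 50% of all tested genes.

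The member counts changed when a library was left out, and not always with those of the whole table. Without OENr4a3 replicate 1, 3 members were called, all higher, where 5.36% of all tested genes were called higher and 2.96% lower. Without OENr4a3 replicate 2, 4 members were called, all higher, where 4.83% of all tested genes were called higher and 2.87% lower. Without OECtrl replicate 1, 16 members were higher and 6 lower, where the shares of all tested genes were 23.3% and 21.9%. Without OECtrl replicate 2, 19 were higher and 1 lower, where the shares were 12.7% and 10.8%. Each of these fits has 1 library in a group, which is assumed to vary like the pair of the other group. Over the members, the median difference between the libraries of a pair was 0.11 on the log2 scale in OENr4a3 and 0.17 in OECtrl.

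Of 28 other genes of the HIF pathway, among them the beta subunit Arnt and the ubiquitin ligase component Vhl, 26 were tested, 4 rose and the other 22 did not pass (median log2 fold change 0.12). The share higher was 15.4%, near the 12.0% of all tested genes. With the length trend removed, 7 of the 26 were called higher and 1 lower, where 9.07% and 11.2% of all tested genes were. Vegfa, the endothelial growth factor, measured 607 and 547 CPM in OENr4a3 and 355 and 364 CPM in OECtrl (log2 fold change 0.68 ± 0.0960 SE, adjusted p = 0.00226). Vldlr, a lipoprotein receptor, measured 112 and 95.7 CPM in OENr4a3 and 67.7 and 64.3 CPM in OECtrl (log2 fold change 0.65 ± 0.114 SE, adjusted p = 0.00608), and Kdm4b, a histone demethylase, 40.4 and 43.8 CPM in OENr4a3 and 29.9 and 27.3 CPM in OECtrl (log2 fold change 0.56 ± 0.119 SE, adjusted p = 0.0127). The other gene called, named after its value was seen, was Ak4, a mitochondrial adenylate kinase (log2 fold change 0.51, adjusted p = 0.0161).

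Of 25 other glycolysis genes 18 were tested, 3 rose and 3 fell (median log2 fold change 0.03). The share was 16.7% in each direction, where 12.0% of all tested genes were called higher and 11.0% lower. Slc2a4, the insulin-responsive carrier GLUT4, measured 2.92 and 3.73 CPM in OENr4a3 and 1.04 and 1.32 CPM in OECtrl (log2 fold change 1.48, adjusted p = 0.0137). Gapdhs, the germ-cell form of Gapdh, measured 1.43 and 1.11 CPM in OENr4a3 and 0.277 and 0.359 CPM in OECtrl (log2 fold change 1.97, adjusted p = 0.0255). Also called, and named after their values were seen, were Pfkfb2 as higher (log2 fold change 0.49, adjusted p = 0.0322), and the lactate carrier Slc16a1 (log2 fold change -0.45, adjusted p = 0.0302) and the hexokinase Hk3 (log2 fold change -0.56, adjusted p = 0.0328) as lower.

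Of 13 genes that carry, use or control pyruvate in mitochondria, 1 fell and the other 12 did not pass. The share lower was 7.69%, where 11.0% of all tested genes were called lower. The median log2 fold change was -0.25, over genes that act in different ways, Pdk2, Pdk3, Pdk4 and Pcx among them. The gene that fell was Pdhb, a subunit of pyruvate dehydrogenase, at 63.0 and 60.2 CPM in OENr4a3, against 74.9 and 92.9 CPM in OECtrl (log2 fold change -0.45, adjusted p = 0.0319). Dld, another subunit of that complex (log2 fold change -0.33, adjusted p = 0.0537), and the pyruvate carrier subunit Mpc2 (log2 fold change -0.38, adjusted p = 0.0957) did not pass. Of 8 genes of the pentose phosphate pathway, which makes NADPH and ribose from glucose, 1 fell and the other 7 did not pass (median log2 fold change -0.24). The share lower was 12.5%, near the 11.0% of all tested genes. Taldo1, transaldolase, measured 114 and 122 CPM in OENr4a3, against 148 and 175 CPM in OECtrl (log2 fold change -0.45, adjusted p = 0.0228), and Pgd (log2 fold change -0.28, adjusted p = 0.0602) and Rpia (log2 fold change -0.48, adjusted p = 0.0656) did not pass. With the length trend removed, 3 genes were called lower in each of these 2 lists, of 13 and 8 genes, where 11.2% of all tested genes were.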

How the data were processed

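RNA from 2 OENr4a3 and 2 OECtrl libraries was sequenced. The extraction protocol names rRNA depletion and a stranded kit, per the labels, while the molecule is labelled polyA RNA. Trimmomatic 0.36, Subread 1.5.1, featureCounts and SAMtools are named with build mm10, per the submitters' processing notes. Which aligner, annotation and strand option were used is not given in these sources. The authors deposited raw read counts per gene, per the file headers, with an exonic length. Another 4 per-sample FPKM columns were not used.

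Counts were filtered with filterByExpr, leaving 15029 of 27419 genes with a read, scaled by TMM and tested with edgeR 4.0.16 in R 4.3.3 (quasi-likelihood test, no block). P-values were adjusted by Benjamini-Hochberg over all tested genes, with a threshold of 0.05. CPM used TMM-scaled library sizes, the SE was derived from the fold change and the F statistic, and 3 reads equal 0.165 to 0.208 CPM. Depth ranged from 14275501 to 18441428 counts; intervals at 95% come from the fit. The biological coefficient of variation was 0.0955. Alternatives were DESeq2 1.42.0, limma-voom (limma 3.58.1), other scaling factors, filters and thresholds, a replicate block, each library left out, and removal of a lowess trend (span 0.3) of each library's log2 CPM (prior count 2) with exonic length.

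The members and lists were chosen with earlier results of these data known. All 37 members are named; of each other list, the 3 tested genes with the smallest p are named, except 1 that is not reported here. Gene coordinates are from GENCODE M21 (GRCm38), because the deposited coordinates equal those of M21 for 1494 of 52083 shared identifiers, and promoters from RefSeq (GRCm38.p6).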

Additional observations from a re-analysis of the deposited data

How the results depend on the processing

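Slc16a3, Bnip3 and Pdk1 kept their call and direction in all 13 alternatives, and the other 10 called members lost it in at least 1. Over 481 values of 37 members in 13 alternatives, 390 kept their direction and side of the threshold, 42 lost the call, 27 gained one and 22 changed sign. With every gene that has a read tested, 1878 of 27419 genes were called in either direction. There 7 members were higher and 0 lower by edgeR, with 5 higher and 0 lower among hypoxia genes and 0 lower among glycolysis enzymes. DESeq2, run on the 15029 filtered genes, called 2 members lower. At an adjusted p under 0.01, 911 of 15029 genes were called in either direction. There 4 members were higher and 0 lower, all 4 hypoxia genes, with 0 glycolysis enzymes in either direction. With upper-quartile factors 5 hypoxia genes were higher and 2 glycolysis enzymes lower, where the median log2 fold change of all 15029 tested genes was -0.046. The shares of all tested genes called with those factors are not given here, so these 2 counts have no background beside them. With the length trend removed, with or without the replicate block, 1 member and 0 glycolysis enzymes were lower. Leaving out 1 library at a time gave 1203 to 7133 called genes, 3 to 19 members higher and 0 to 6 lower, 3 to 12 hypoxia genes higher and 0 to 3 lower, and 0 to 7 glycolysis enzymes higher and 0 to 3 lower. The cause of these changes was not tested. With upper-quartile factors the log2 fold change changed sign for Tpi1 (-0.0056). With every gene tested the log2 fold change changed sign for Pkm (0.0042). With the length trend removed the log2 fold change changed sign for Adm (0.091), Gpi1 (-0.025), Aldoa (0.059) and Eno1 (-0.051). With the replicate block and the length trend removed the log2 fold change changed sign for Adm (0.091), Gpi1 (-0.026), Aldoa (0.062) and Eno1 (-0.031). Over the fits that left out 1 library, the sign changed in at least 1 fit for Aldoa (-0.18 to 0.097), Car9 (-0.071 to 0.77), Eno1 (-0.15 to 0.28), Higd1a (-0.44 to 0.0058), Ldha (-0.078 to 0.22), Pfkfb4 (-0.016 to 0.31), Pkm (-0.047 to 0.037) and Tpi1 (-0.12 to 0.21), given as the lowest to the highest log2 fold change.

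The labels state no pairing of the libraries by replicate number. The deviations of the replicate 1 libraries from their group means correlated at -0.0776. With 2 libraries in each group, that value cannot settle whether the replicates were paired. With the replicate as a block 3851 of 15029 genes were called in either direction, where 3457 were without it. With the block 10 members were higher and 2 lower. Of the 13 members called without the block, 10 were called with it: Slc2a1 (adjusted p = 0.0502), Hif1a (0.105) and Ldhb (0.0566) lost the call, and Ankrd37 (0.0408) and Pgk1 (0.018, lower) gained one. Depth limits Car9, Aldoc, Pfkfb4 and Ankrd37, each with under 100 reads in every library.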
